A study of Homo sapiens with 34 samples.

Results

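Chromatin binding of RBPJ and SOX2 was examined at the genes of the Notch transcription complex itself, in MB157, a triple-negative breast cancer cell line, and in its derivative MB157R. Peaks were taken where the summit, the position of highest signal, lay in the gene body or within 50 kb of the GENCODE gene start of 9 genes, out of 19962 protein-coding genes. The 9 genes were RBPJ, the coactivators MAML1, MAML2, MAML3 and EP300, and the corepressors SPEN, CTBP1, KDM5A and L3MBTL3. They held 421 of 290228 peaks, which fell into 217 distinct sites when summits less than 500 bp apart were joined.

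The groups were MB157R iN1-ICD and MB157R iEV, in which RBPJ and SOX2 were immunoprecipitated, and MB157 iSOX2 and MB157 iEV, in which RBPJ and the HA tag were immunoprecipitated. MB157R cells had been selected by 25 weeks in 1 µM of the γ-secretase inhibitor (GSI) LY3039478, which blocks Notch receptor cleavage, and MB157 cells had not. The labels give 1 µg/ml doxycycline for 72 h to induce HA-tagged SOX2 (iSOX2) or N1-ICD (iN1-ICD), and iEV denotes the matching doxycycline-treated empty vector. Per the study's methods, the construct named N1-ICD is human NOTCH1 without its extracellular domain, also in a vector with an HA tag. HA-SOX2 and N1-ICD were thus produced from inducible transgenes, whereas the SOX2 antibody in MB157R does not depend on a tag, and MB157R is a single resistant derivative of 1 line. Each group had 3 libraries, except the HA control in MB157 iEV with 1, and the libraries of a group had been pooled for peak calling. There is therefore 1 peak list for each group and no replicate spread, so no difference below was tested, and every interval covers counting error only.

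All Notch receptors act through RBPJ, which binds DNA. Once a receptor is cleaved, its intracellular domain binds RBPJ and forms a groove for a Mastermind-like (MAML) protein, which recruits the histone acetyltransferase EP300 and turns target genes on. In the absence of the intracellular domain RBPJ associates with corepressors, among them SPEN, which brings in histone deacetylase complexes, CTBP1, a partner of many repressors, KDM5A, a demethylase of histone H3 lysine 4, and L3MBTL3, a methyl-lysine reader. SOX2 is an HMG-box transcription factor of stem and progenitor cells.

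The deposited fold and p-value of each peak were used to recover the number of fragments at its summit. Lists held 37297 (RBPJ, MB157R iN1-ICD), 46601 (RBPJ, MB157R iEV), 34521 (RBPJ, MB157 iSOX2), 25243 (RBPJ, MB157 iEV), 323 (SOX2, MB157R iN1-ICD), 37963 (SOX2, MB157R iEV), 108203 (HA-SOX2, MB157 iSOX2) and 77 peaks (HA control, MB157 iEV). The genome-wide background was between 1.604 and 2.243 fragments in these lists, apart from 0.524 in the HA control. The lowest summit called was 8 fragments in all 4 RBPJ lists and in the SOX2 list of MB157R iEV and the HA-SOX2 list, so a site absent from one of these can still have held several fragments.

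The sequences that carry the sites described below are given first, from hg38 on the plus strand, as 201 bases around the highest summit. Capitals mark matches to the RBPJ motif (CGTGAGAA, CGTGGGAA, TGTGAGAA or TGTGGGAA), the SOX motif (AACAAAG or AACAATG) and the AP-1 motif (TGACTCA or TGAGTCA), searched on both strands, so that a match on the minus strand reads as its reverse complement. The RBPJ and SPEN sequences are shown because they are the sites of highest RBPJ fold of their genes and hold the RBPJ motif at the summit.
RBPJ, chr4:26319534-26319734: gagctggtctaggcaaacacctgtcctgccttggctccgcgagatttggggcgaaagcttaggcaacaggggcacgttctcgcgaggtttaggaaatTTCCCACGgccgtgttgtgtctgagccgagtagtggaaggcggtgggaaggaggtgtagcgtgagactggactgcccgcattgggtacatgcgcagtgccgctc
SPEN, chr1:15835014-15835214: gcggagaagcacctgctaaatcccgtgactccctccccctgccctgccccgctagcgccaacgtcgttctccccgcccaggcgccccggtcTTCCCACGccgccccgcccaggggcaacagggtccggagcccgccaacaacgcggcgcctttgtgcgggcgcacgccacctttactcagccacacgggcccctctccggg
The next pair, both in intron 1, is shown because the RBPJ motif stood beside a SOX motif, and in MAML3 also beside an AP-1 motif.
MAML2, chr11:96254206-96254406: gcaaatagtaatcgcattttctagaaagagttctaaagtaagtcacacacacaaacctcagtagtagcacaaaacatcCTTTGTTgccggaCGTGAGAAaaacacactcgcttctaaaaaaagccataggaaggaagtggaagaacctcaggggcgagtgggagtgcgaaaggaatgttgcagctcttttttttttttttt
MAML3, chr4:140098846-140099046: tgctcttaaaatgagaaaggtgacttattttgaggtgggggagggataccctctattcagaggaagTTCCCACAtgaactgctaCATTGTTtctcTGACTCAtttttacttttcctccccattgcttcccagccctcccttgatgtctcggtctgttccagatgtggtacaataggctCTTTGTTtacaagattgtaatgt
The last pair is shown because all 6 lists with any summit at these genes had a summit in the joined site. Near the highest summit, MAML2 held an RBPJ motif and the site upstream of KDM5A a pair of SOX motifs on opposite strands. Not every summit lay in the printed bases. The MB157R iEV RBPJ summit of MAML2, at 96.1 kb, lay outside them. So did the KDM5A RBPJ summits of MB157R iN1-ICD and MB157R iEV, 12.3 and 12.5 kb upstream.
MAML2, chr11:96246803-96247003: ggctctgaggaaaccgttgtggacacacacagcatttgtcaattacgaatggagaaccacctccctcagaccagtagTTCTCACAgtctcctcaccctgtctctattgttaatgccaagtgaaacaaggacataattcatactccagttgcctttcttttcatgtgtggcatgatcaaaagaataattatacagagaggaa
KDM5A, chr12:402103-402303: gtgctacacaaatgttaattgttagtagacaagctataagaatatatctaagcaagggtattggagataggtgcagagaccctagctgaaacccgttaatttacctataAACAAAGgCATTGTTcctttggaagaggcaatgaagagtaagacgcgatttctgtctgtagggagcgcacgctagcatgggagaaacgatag

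RBPJ summits at the 9 genes numbered 59 in MB157R iN1-ICD, 61 in MB157R iEV, 44 in MB157 iSOX2 and 38 in MB157 iEV. SOX2 summits numbered 0 with iN1-ICD and 64 with iEV in MB157R, and HA-SOX2 summits numbered 155 in MB157 iSOX2, with 0 in the HA control. MAML2 had the most RBPJ summits in all 4 lists and SPEN the next most, other than in MB157 iEV, where MAML3 had 7. MAML2 and SPEN had 25 and 16 in MB157R iN1-ICD, 24 and 16 in MB157R iEV, 15 and 9 in MB157 iSOX2, and 11 and 6 in MB157 iEV. Gene length sets part of these counts, since the spans searched ran between 100 kb (MAML1 and CTBP1) and 487.0 kb (MAML3). Per 100 kb, RBPJ summits at the 9 genes numbered 2.87 in MB157R iN1-ICD, 2.97 in MB157R iEV, 2.14 in MB157 iSOX2 and 1.85 in MB157 iEV. The mean over all protein-coding genes was 2.96, 3.64, 3.04 and 2.26 per 100 kb in the same lists, so the 9 genes lay below it in each, and above the median over genes in the MB157R lists, MB157 iSOX2 and MB157 iEV (2.0, 2.71, 2.0 and 1.0). The SOX2 list of MB157R iEV and the HA-SOX2 list ran the other way, with 3.12 and 7.54 summits per 100 kb at the 9 genes, against means of 1.88 and 4.72 over all genes. MAML2 alone held 28 of these 64 SOX2 summits and 70 of the 155 HA-SOX2 summits. All values for the 9 genes are pooled over their spans, whereas the mean and median over all genes are of per-gene densities. The measures therefore differ.

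**Figure D1:**
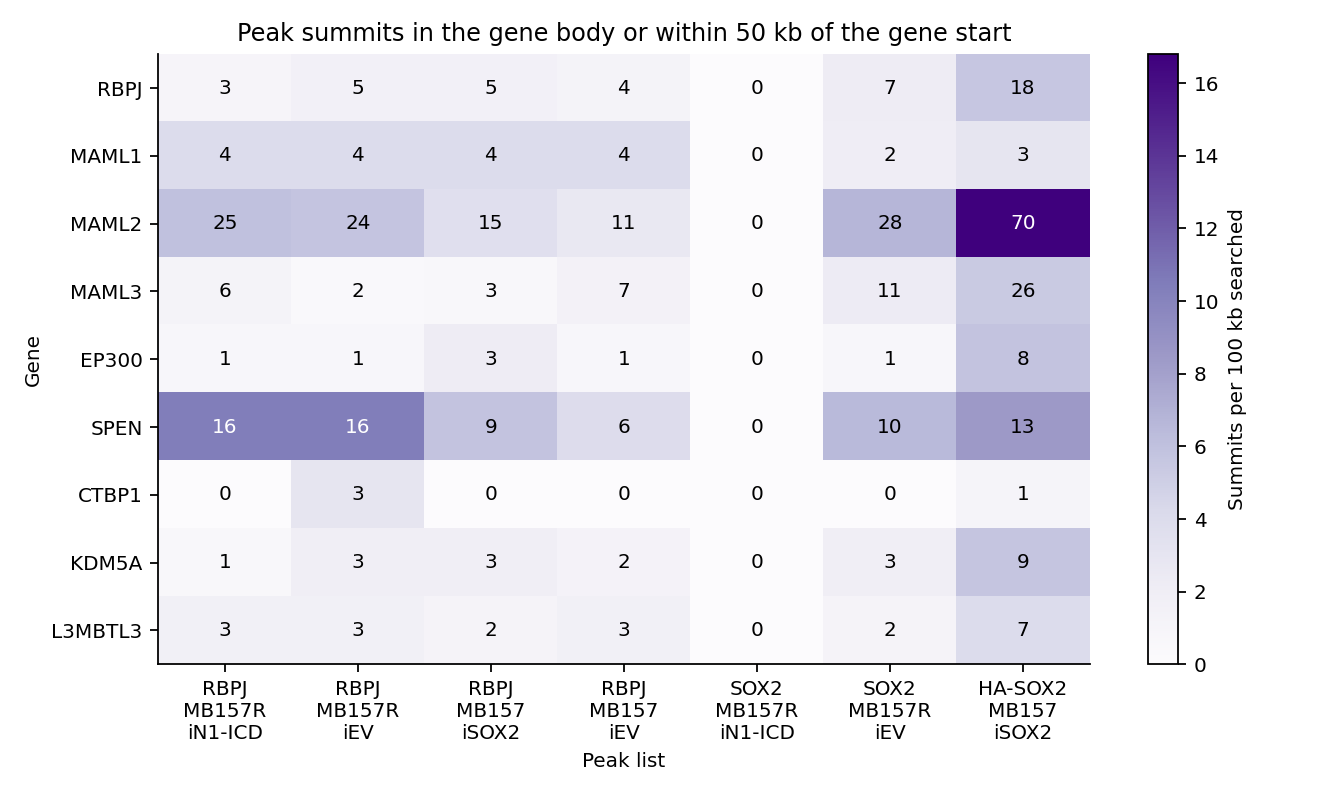
Number of peak summits (printed in each cell) of each gene (rows) in each peak list (columns), with the colour giving summits per 100 kb searched. MAML2 had 70 HA-SOX2 summits, SPEN had 16 RBPJ summits in each MB157R list, and SOX2 in MB157R iN1-ICD had 0 at all 9 genes.

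SPEN and MAML2 stood out among the 9 by density. SPEN had 10.4 RBPJ summits per 100 kb in each MB157R list, at the 96.2 percentile of coding genes with iN1-ICD and the 94.3 percentile with iEV. Some of these summits were nearest to the start of another coding gene, UQCRHL or ZBTB17. MAML2 had 16.8 HA-SOX2 summits per 100 kb, at the 99.6 percentile of coding genes, and 6.72 SOX2 summits per 100 kb in MB157R iEV, at the 96.8 percentile. SPEN was at the same percentile for SOX2 in MB157R iEV, with 6.48 per 100 kb, and at the 87.5 percentile for HA-SOX2, with 8.42. CTBP1 had 0 RBPJ summits in MB157R iN1-ICD, MB157 iSOX2 and MB157 iEV. In MB157R iEV it had 3 weak ones, with folds of 2.81, 4.2 and 4.25, which came to 3.0 per 100 kb (the 55.5 percentile). The 2.81-fold summit lay 520 bp from the start of MAEA, so its assignment to CTBP1 rests on the 50 kb window alone. The lowest density in that list was that of MAML3, with 0.41 per 100 kb (the 14.3 percentile). A broad peak of that list covered a stretch near the MAML3 start where MB157R iN1-ICD and MB157 iEV had separate summits. The rank of MAML3 therefore depends on how peaks were split.

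Of the 217 sites, 63 had a summit of RBPJ and one of SOX2 or HA-SOX2, 37 had RBPJ alone, and 117 had SOX2 or HA-SOX2 alone. HA-SOX2 alone made up 97 of them. All 4 RBPJ lists called 17 sites, 7 of them in MAML2, 3 at SPEN, 2 each at MAML1 and L3MBTL3, and 1 each at RBPJ, EP300 and KDM5A. 10 sites were called in 6 lists, 7 in MAML2 and 1 each at SPEN, KDM5A and L3MBTL3. At the 50 kb limit, summits 45 to 50 kb upstream of a gene start had a median fold of 5.32 (n = 13), and the 8 summits in the next 5 kb outward had 5.31.

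The gene RBPJ carried the strongest RBPJ site of the 9 genes. It lay inside the gene, 156 kb downstream of the 5′ most start and 2 bp from the annotated start of a shorter coding transcript, upstream of the canonical transcript (chr4:26318972-26321055). The summit held 129 fragments (exact 95% Poisson interval 108 to 153) in MB157R iN1-ICD, 284 (252 to 319) in MB157R iEV, 195 (169 to 224) in MB157 iSOX2 and 92 (74.2 to 113) in MB157 iEV. The folds were 47.2, 93.6, 62.5 and 33.3 in that order. As raw counts, the intervals of MB157R iN1-ICD and MB157 iEV overlap between 108 and 113, and those of the other pairs of lists do not. Raw counts are not scaled for the unlike backgrounds of the lists, so overlap can differ after scaling. Divided by the genome-wide background, the summits were at 73.6, 156, 95.8 and 57.3 times it, in the same order. HA-SOX2 was weak there, with 13 fragments and a fold of 4.08, and SOX2 in MB157R iEV had no summit. The RBPJ motif in the sequence above was centred 1 bp from the summit.

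**Figure D2:**
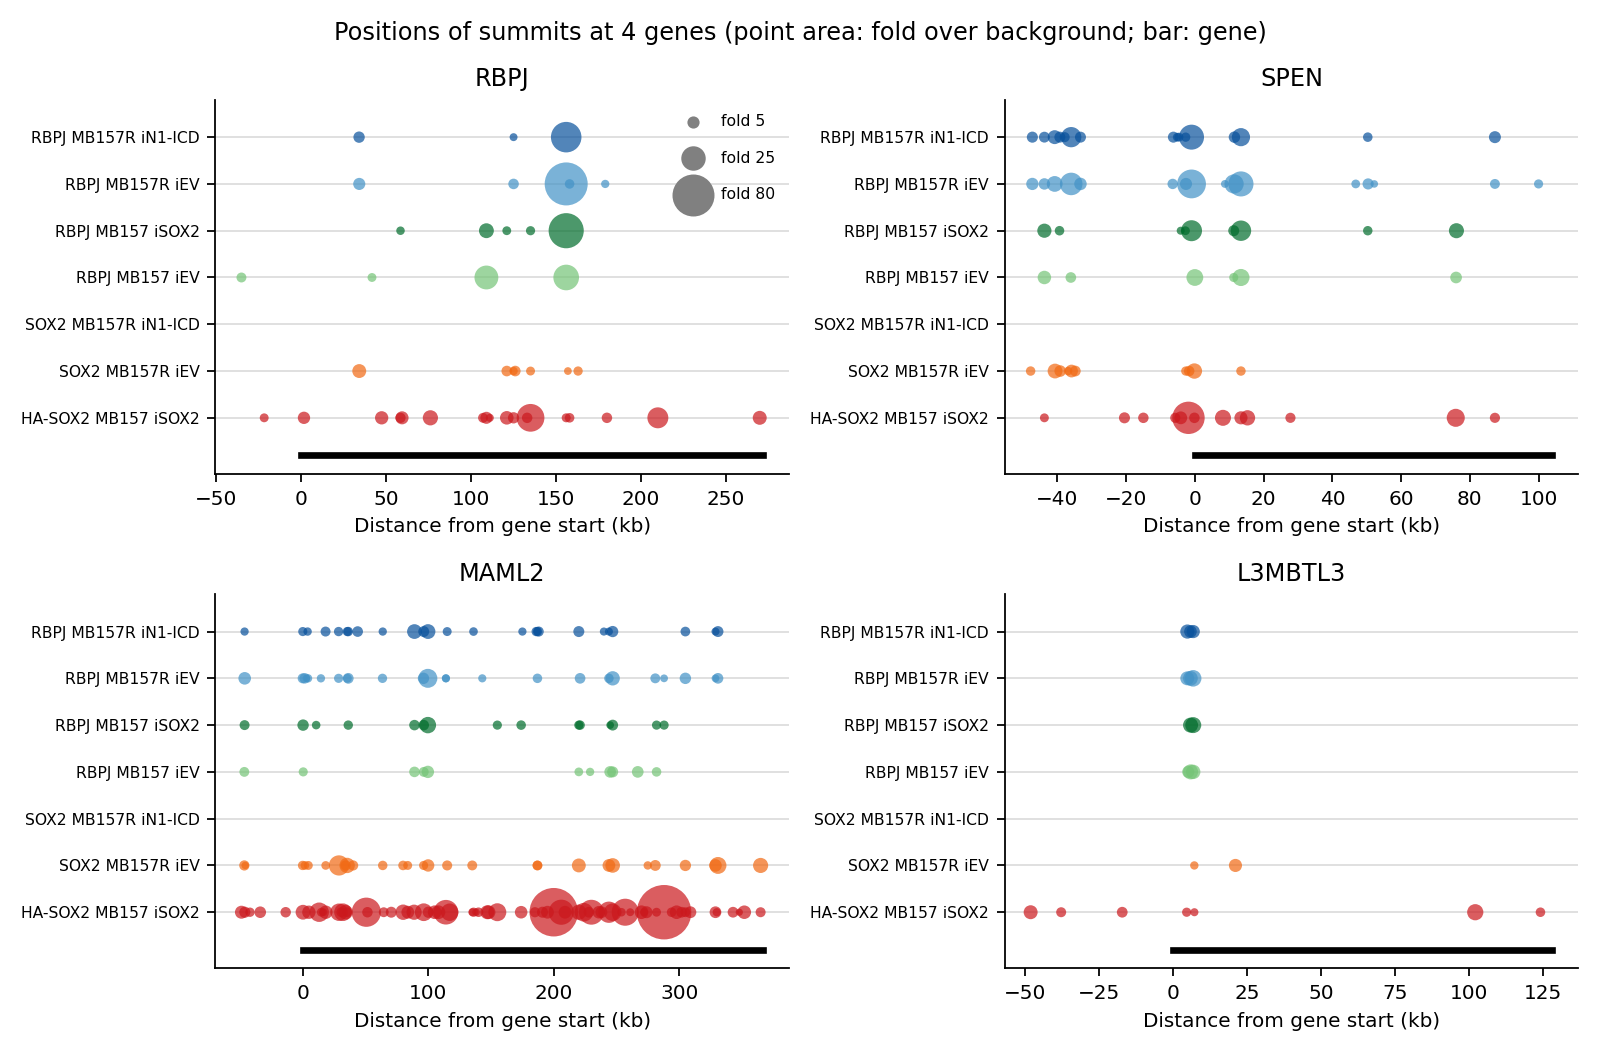
Position of every summit along RBPJ, SPEN, MAML2 and L3MBTL3 (x axis, kb from the gene start) in each peak list (rows), with point area proportional to the fold over background and the black bar marking the gene. RBPJ had its main site at 156 kb, L3MBTL3 had its RBPJ sites packed between 4.85 and 6.87 kb, and HA-SOX2 covered the body of MAML2.

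A second RBPJ site, 109 kb into the gene, was called in MB157 and not in MB157R. It had 39 fragments (27.7 to 53.3, fold 11.2) in MB157 iSOX2 and 74 (58.1 to 92.9, fold 28.8) in MB157 iEV, and HA-SOX2 added 26 fragments (fold 7.39) at the same place in MB157 iSOX2. It held no RBPJ motif within 100 bp and 1 SOX motif. The strongest HA-SOX2 site of the gene was 135 kb downstream of the start (chr4:26297776-26298879), with 125 fragments (104 to 149, fold 38.9), where RBPJ in MB157 iSOX2 had 12 fragments (fold 4.28) and SOX2 in MB157R iEV had 11 (fold 4.05). All other RBPJ summits in this gene had folds of 7.44 or less.

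Among the coactivators, MAML1 had RBPJ at its promoter in all 4 lists. The site 0.125 kb upstream of the start (chr5:179732013-179732912) had 25 fragments (16.2 to 36.9) in MB157R iN1-ICD, 48 (35.4 to 63.6) in MB157R iEV, 24 (15.4 to 35.7) in MB157 iSOX2 and 22 (13.8 to 33.3) in MB157 iEV. The MB157R iEV value was the highest, and as raw counts its interval overlapped those of MB157R iN1-ICD and MB157 iSOX2 at the edge. Divided by the genome-wide background of each list, the values were 14.3, 26.3, 11.8 and 13.7 in the same order, and which intervals overlap can differ on that scale. SOX2 in MB157R iEV had 16 fragments there, and HA-SOX2 had no summit. The SOX2 site of highest fold in MAML1 lay in exon 2, with 20 fragments (fold 6.83) in MB157R iEV and an AP-1 motif.

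MAML2 was the gene with the most sites, 86, of which 27 had RBPJ with SOX2 or HA-SOX2 and 48 had SOX2 or HA-SOX2 alone. Its RBPJ site of highest fold was in intron 1, 99.6 kb from the start (chr11:96242997-96244049). RBPJ fragments there numbered 52 (38.8 to 68.2) in MB157R iN1-ICD, 87 (69.7 to 107) in MB157R iEV, 48 (35.4 to 63.6) in MB157 iSOX2 and 20 (12.2 to 30.9) in MB157 iEV. The MB157 iEV value was the lowest, and its interval lay below the other 3 as raw counts. Divided by the genome-wide background of each list, the values were 29.7, 47.7, 23.6 and 12.5 in the same order. MB157 iEV stayed lowest on that scale, where the intervals can overlap. SOX2 in MB157R iEV had 34 fragments and HA-SOX2 had 27 at the same site. Close by were the 2 sites with an RBPJ motif printed above, at 96.3 and 88.9 kb. The site at 96.3 kb had 27 RBPJ fragments in MB157R iN1-ICD, 27 in MB157R iEV, 25 in MB157 iSOX2 and 13 in MB157 iEV. The site at 88.9 kb, where RBPJ and SOX motifs neighbour each other, had 41 in MB157R iN1-ICD, 16 in MB157 iSOX2 and 14 in MB157 iEV, with no summit in MB157R iEV, and 37 HA-SOX2 fragments.

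The largest HA-SOX2 sites of all 9 genes were in MAML2. The site 288 kb from the start, in intron 2 (chr11:96054797-96057221), had 485 fragments (443 to 530, fold 150.0), and the site in intron 1 at 200.0 kb had 430 (fold 119). RBPJ was near the detection limit at the first, with 13 fragments in MB157R iEV and 12 in MB157 iSOX2, and had no summit at the other. SOX2 in MB157R iEV had a summit at neither of them. Its own highest site in MAML2 was 28.7 kb from the start, with 104 fragments (fold 20.7), where HA-SOX2 had 49 (fold 15.4). At the MAML2 start itself all 6 lists had a summit, with RBPJ folds between 4.22 and 6.59.

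In MAML3, RBPJ summits near the start were split or merged differently between lists. The gene had 6 RBPJ summits in MB157R iN1-ICD, 2 in MB157R iEV, 3 in MB157 iSOX2 and 7 in MB157 iEV. Its leading site, 0.214 kb upstream of the start (chr4:140153904-140154605), had 20 fragments (fold 6.99) in MB157R iN1-ICD, 62 (fold 7.63) in MB157 iSOX2 and 33 (fold 10.6) in MB157 iEV, and no summit in MB157R iEV. In MB157R iEV 1 broad peak (chr4:140150461-140154603) covered that position, with its summit 2.38 kb inside the gene, where it had 41 fragments (fold 10.3), against 24 (fold 7.68) at that site in MB157R iN1-ICD. The missing summit in MB157R iEV is therefore no absence of RBPJ signal at the MAML3 promoter. In MB157 iSOX2, too, 1 peak spanned the whole stretch. The intron 1 site printed above, with RBPJ, SOX and AP-1 motifs, had 15 RBPJ fragments in MB157R iN1-ICD, 18 SOX2 fragments in MB157R iEV and 22 HA-SOX2 fragments in MB157 iSOX2. No RBPJ list other than MB157R iN1-ICD called it. The strongest HA-SOX2 site of MAML3, in intron 2, had 82 fragments (fold 25.6) and no other factor.

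EP300 had 1 RBPJ site called in all 4 RBPJ lists, 1.22 kb upstream of its start (chr22:41090982-41091534). RBPJ had 12 fragments (6.2 to 21.0) in MB157R iN1-ICD, 26 (17.0 to 38.1) in MB157R iEV, 28 (18.6 to 40.5) in MB157 iSOX2 and 15 (8.4 to 24.7) in MB157 iEV. As raw counts these intervals overlap throughout. Divided by the genome-wide background of each list, MB157R iN1-ICD over MB157R iEV had a ratio of 0.48 (0.22 to 0.985). SOX2 had 26 fragments (fold 6.85) at that site in MB157R iEV. HA-SOX2 had 8 summits at EP300, none near an RBPJ summit of MB157 iSOX2.

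**Figure D3:**
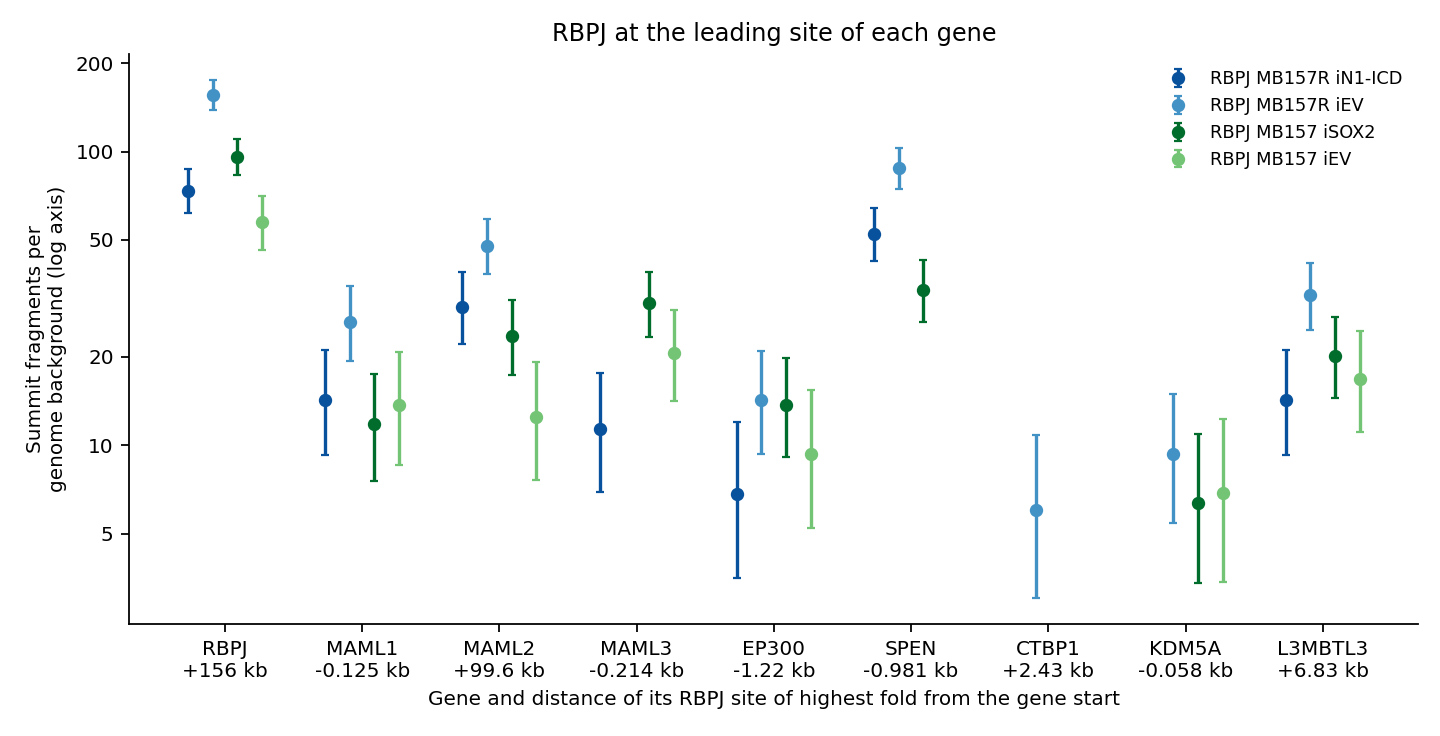
RBPJ summit fragments divided by the genome-wide background of the list (y axis, log scale) at the site of highest RBPJ fold of each gene, with exact 95% Poisson intervals. A missing point means that the list had no summit at the site, although at MAML3 a broad peak of MB157R iEV covered it. RBPJ in MB157R iEV was highest at RBPJ (156 times the background) and SPEN (87.8 times).

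SPEN was the corepressor gene with the strongest RBPJ binding. Its promoter peak (chr1:15834065-15836910) had its summit 0.981 kb upstream of the start, at an RBPJ motif, with 92 fragments (74.2 to 113, fold 31.6) in MB157R iN1-ICD, 160 (136 to 187, fold 42.0) in MB157R iEV and 69 (53.7 to 87.3, fold 22.3) in MB157 iSOX2. In MB157 iEV the peak covered the same stretch, and its summit was called 0.019 kb upstream of the start, with 45 fragments (fold 14.3). The highest HA-SOX2 signal was 1.87 kb upstream, with 171 fragments (146 to 199, fold 53.0), and SOX2 in MB157R iEV had 26 there and 42 (fold 12.0) at 0.154 kb upstream. The strongest SPEN summits of RBPJ and of HA-SOX2 were thus more than 500 bp apart, while their peak regions overlapped.

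A second strong RBPJ site of SPEN lay 13.4 kb into the gene, in intron 1. RBPJ had 67 fragments in MB157R iN1-ICD, 177 in MB157R iEV, 65 in MB157 iSOX2 and 41 in MB157 iEV, with SOX2 at 26 in MB157R iEV and HA-SOX2 at 29. This was 1 of the 10 sites called in 6 lists. Further upstream, RBPJ summits formed a cluster 33.3 to 47.3 kb from the SPEN start. The strongest of these, 36.0 kb upstream, had 60 RBPJ fragments (fold 20.8) in MB157R iN1-ICD, 99 (fold 25.7) in MB157R iEV, no summit in MB157 iSOX2 and 14 (fold 5.76) in MB157 iEV. SOX2 had 34 fragments there in MB157R iEV. The nearest coding start to this cluster is that of UQCRHL, 9292 bp from the 36.0 kb site, so its assignment to SPEN rests on the 50 kb window alone.

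L3MBTL3 had a compact group of RBPJ sites around its canonical start, which is downstream of the 5′ most start of the gene. The strongest, 6.83 kb from the gene start and 12 bp from an annotated transcript start (chr6:130020165-130021546), had 25 fragments (16.2 to 36.9) in MB157R iN1-ICD, 59 (44.9 to 76.1) in MB157R iEV, 41 (29.4 to 55.6) in MB157 iSOX2 and 27 (17.8 to 39.3) in MB157 iEV. The neighbour at 5.91 kb had 23 fragments in MB157R iN1-ICD, 38 in MB157R iEV, 36 in MB157 iSOX2 and 30 in MB157 iEV. SOX2 and HA-SOX2 were weak in this group, with folds of 4.3 or less. The strongest HA-SOX2 site of L3MBTL3 was 102 kb downstream, with 63 fragments (fold 13.3), and no RBPJ.

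KDM5A and CTBP1 had little RBPJ. At the KDM5A start, RBPJ had no summit in MB157R iN1-ICD, 17 fragments in MB157R iEV, 13 in MB157 iSOX2 and 11 in MB157 iEV, beside 28 for HA-SOX2. The site 12.9 kb upstream of KDM5A, with the pair of SOX motifs printed above, was called in 6 lists and was weak in each, with folds between 3.39 (RBPJ, MB157 iEV) and 5.55 (HA-SOX2) at the highest summit of each list. HA-SOX2 was highest in KDM5A at an intron 5 site, with 55 fragments (fold 16.3). For CTBP1 the 3 RBPJ summits of MB157R iEV had 11, 15 and 9 fragments, 2.43 and 0.583 kb downstream and 39.0 kb upstream of the start, and the single HA-SOX2 summit, 24.7 kb upstream, had 26. The nearest coding start to both upstream summits was that of MAEA.

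At promoters, taken as 1 kb on either side of the gene start, RBPJ had a summit at 4 of 9 genes in MB157R iN1-ICD and at 5 of 9 in MB157R iEV, MB157 iSOX2 and MB157 iEV. Over all protein-coding genes RBPJ had such a summit at 43.0% in MB157R iN1-ICD, 56.1% in MB157R iEV, 50.4% in MB157 iSOX2 and 38.0% in MB157 iEV. For SOX2 it was 0 of 9 with iN1-ICD and 5 of 9 with iEV in MB157R, and for HA-SOX2 5 of 9, against 0.0751%, 21.8% and 34.0% of all genes. With any annotated transcript start in place of the gene start, a choice made after the values were seen, RBPJ was at 6, 7, 8 and 7 of the 9 in MB157R iN1-ICD, MB157R iEV, MB157 iSOX2 and MB157 iEV, against 51.9%, 65.2%, 59.4% and 46.2% of all genes. SOX2 was then at 0 of 9 in MB157R iN1-ICD (0.145% of all genes) and 7 of 9 in MB157R iEV (30.0%), and HA-SOX2 at 7 of 9 (45.1%). The genes RBPJ and L3MBTL3 entered by this second definition, and EP300 did so for RBPJ in MB157 iSOX2. That EP300 summit had 11 fragments and lay in exon 30, 83.8 kb into the gene and 316 bp from an annotated transcript start.

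Proximity of RBPJ and SOX2 was then compared with that over the whole lists. In MB157R iEV, 32 of 61 RBPJ summits at the 9 genes had a SOX2 summit less than 500 bp away (52.5%, exact 95% binomial interval 39.3 to 65.4), against 46.4% of all RBPJ summits. Conversely, 34 of 64 SOX2 summits had RBPJ nearby (53.1%, 40.2 to 65.7), against 57.0% of all SOX2 summits. In MB157 iSOX2, 27 of 44 RBPJ summits had HA-SOX2 nearby (61.4%, 45.5 to 75.6), against 47.1% of all, and 27 of 155 HA-SOX2 summits had RBPJ nearby (17.4%, 11.8 to 24.3), against 15.0% of all. Each of these 4 intervals includes the value of the whole list. MAML2 supplied 18 of the 32 RBPJ summits with SOX2 in MB157R iEV, and without it the share was 37.8% (22.5 to 55.2). Without MAML2, 14 of 36 SOX2 summits of MB157R iEV had RBPJ nearby (38.9%, 23.1 to 56.5), an interval that lies below the 57.0% of the whole list. In MB157 iSOX2 without MAML2, the shares were 51.7% (32.5 to 70.6) for RBPJ and 17.6% (10.2 to 27.4) for HA-SOX2, whose intervals include the whole lists. At SPEN, 5 of 16 RBPJ summits of MB157R iEV had SOX2 nearby, and at RBPJ 2 of 5, the strongest not among them. In MB157 iSOX2, all 5 RBPJ summits of the gene RBPJ had HA-SOX2 nearby.

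**Figure D4:**
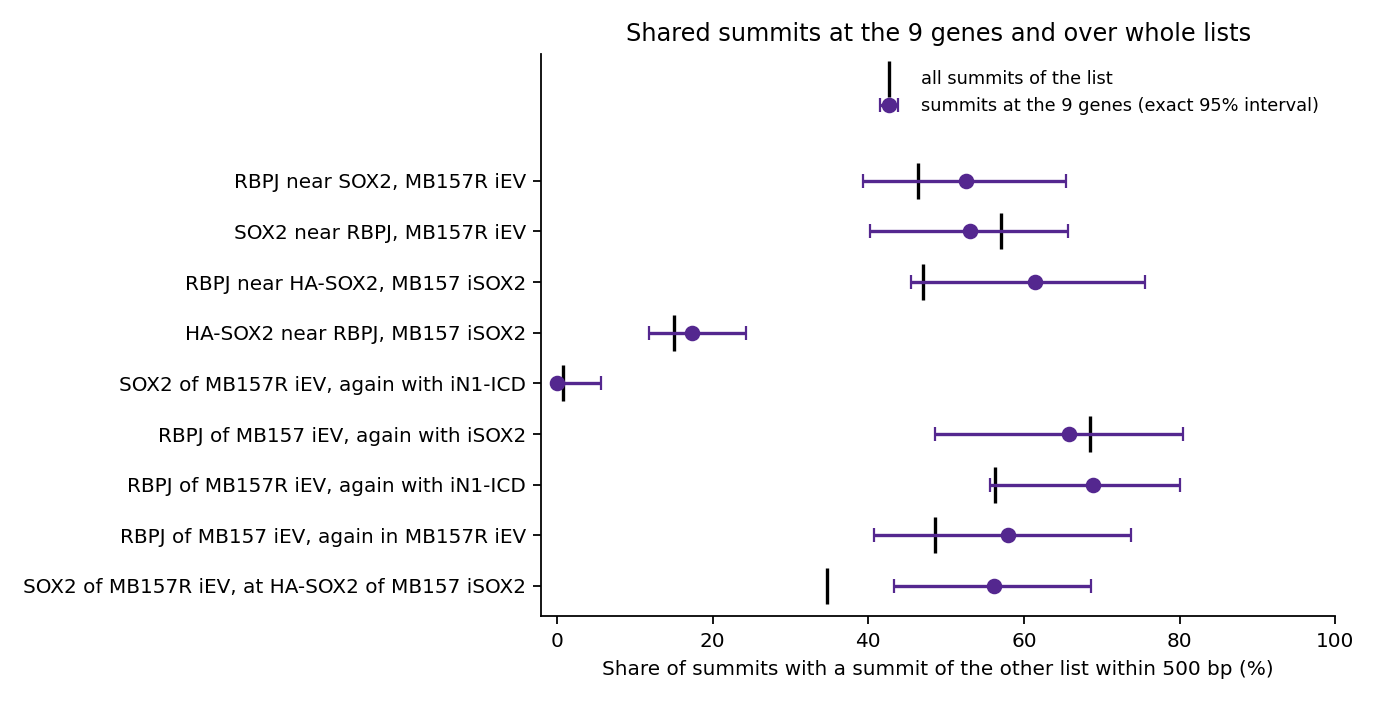
Share of summits (x axis, %) of one list with a summit of another list less than 500 bp away, for the 9 genes (points, with exact 95% binomial intervals) and for the whole list (vertical marks). The interval lies clear of the mark for SOX2 summits of MB157R iEV at HA-SOX2 summits of MB157 iSOX2 (56.2% against 34.7%) and includes it for the other 8 comparisons. That share was not among those planned, and without MAML2 its interval includes the mark.

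SOX2 summits of MB157R iEV lay at HA-SOX2 summits of MB157 iSOX2 more often at these genes than over the whole list, mainly through MAML2. This share was not among those planned and was not repeated under the other distances, thresholds or gene assignments. Of 64 SOX2 summits, 36 lay at an HA-SOX2 summit (56.2%, 43.3 to 68.6), against 34.7% of all SOX2 summits. MAML2 with 20 of 28 and MAML3 with 7 of 11 held most of them, and without MAML2 the share was 44.4% (27.9 to 61.9), an interval that includes the value of the whole list. Of the same 64 SOX2 summits, 0 were called again with iN1-ICD, which allows a share of up to 4.69% by the limit of 3 counts and up to 5.6% by the exact 95% interval, and over the whole list the share was 0.796%. A share as low as that of the whole list could not be told apart from 0 with 64 summits.

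RBPJ summits at the 9 genes recurred across conditions at rates whose exact 95% intervals include those of the whole lists. With iN1-ICD, 42 of 61 RBPJ summits of MB157R iEV were called again (68.9%, 55.7 to 80.1), against 56.3% of all, and 42 of 59 summits of MB157R iN1-ICD were present in MB157R iEV (71.2%), against 70.7% of all. With iSOX2, 25 of 38 RBPJ summits of MB157 iEV were called again (65.8%, 48.6 to 80.4), against 68.5% of all, and 27 of 44 summits of MB157 iSOX2 were present in MB157 iEV (61.4%), against 50.0% of all. In MB157R iEV, 22 of 38 summits of MB157 iEV were called again (57.9%, 40.8 to 73.7), against 48.6% of all, and 21 of 61 summits of MB157R iEV were present in MB157 iEV (34.4%), against 26.2% of all.

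At sites called in both lists, summit fragments were divided by the genome-wide background of each list and compared as a ratio. The comparisons with MB157R iEV share that list, as do those with MB157 iEV. For iN1-ICD over iEV in MB157R, the median ratio was 0.725 at 42 sites of the 9 genes, against 0.793 at all 26110 shared sites. 0 of 42 sites were at least 2-fold higher with iN1-ICD, against 1.0% of all, and 6 of 42 (14.3%) were at least 2-fold lower, against 6.31% of all. These 6 included the main site of RBPJ, with a ratio of 0.472 (0.38 to 0.583), and the SPEN sites near 11.4 and 13.4 kb, with 0.333 (0.201 to 0.533) and 0.393 (0.292 to 0.524). The L3MBTL3 site at 6.83 kb (0.44), the EP300 site (0.48) and the MAML2 site 46.6 kb upstream, which lies 211 bp from the start of CCDC82 (0.445), made up the rest. With each summit divided by the local background of its peak, the median was 0.806 at the 9 genes, against 0.869 at all sites, and 4 of 42 (9.52%) were at least 2-fold lower, against 8.74% of all. On that scale 0 of 42 were at least 2-fold higher, against 2.73% of all. The 11.4 kb SPEN site (0.356), the EP300 site (0.398) and the MAML2 site (0.412) stayed at least 2-fold lower, and the main RBPJ site (0.529), the 13.4 kb SPEN site (0.569) and the L3MBTL3 site (0.723) did not. A MAML1 site 34.2 kb upstream of the start joined them with 0.418.

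For iSOX2 over iEV in MB157, the median ratio was 1.08 at 25 sites, against 0.969 at all 17165 shared sites. 0 of 25 were at least 2-fold higher with iSOX2, against 0.728% of all, and 2 of 25 were at least 2-fold lower, against 2.88% of all. The pair that was lower was the 109 kb site of RBPJ, with a ratio of 0.415 (0.274 to 0.62), and a MAML2 site 245 kb from the start, with 9 fragments in MB157 iSOX2 and 21 in MB157 iEV (0.338, 0.136 to 0.769). The 2 large sites of the gene RBPJ therefore stood on opposite sides of 1, since its 156 kb site had a ratio of 1.67 (1.3 to 2.16), at the 97.0 percentile of all shared sites. The 109 kb site was at the 1.08 percentile. With the local background the median was 0.974, on the other side of 1, against 0.905 at all sites. On that scale 0 of 25 sites were at least 2-fold higher, against 1.76% of all, and 3 of 25 at least 2-fold lower, against 5.86% of all. The 109 kb and 156 kb sites of RBPJ then had ratios of 0.33 and 1.78.

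For MB157R iEV over MB157 iEV, the median ratio was 1.92 at 21 sites, against 1.22 at all 12153 shared sites. 10 of 21 sites (47.6%) were at least 2-fold higher in MB157R, against 16.2% of all, and 0 were at least 2-fold lower, against 5.25% of all. The highest ratios were those of the SPEN sites 36.0 kb upstream, with 6.23 (3.54 to 11.8), and at 11.4 kb, with 4.72 (2.64 to 9.04). The MAML2 site at 99.6 kb had 3.83 (2.33 to 6.58) and the SPEN site at 13.4 kb had 3.8 (2.69 to 5.48). The main RBPJ site had 2.72 (2.14 to 3.48). The local background under the peaks differed between the lines at the same genes. At MAML2 its median was 2.1 times the genome-wide background in MB157R iEV and 1.09 times in MB157 iEV, and at SPEN it was 1.54 times in MB157R iEV and 1.07 times in MB157 iEV. With each summit divided by its local background the median at the 9 genes was 1.28, against 1.24 at all sites, 4 of 21 sites (19.0%) were at least 2-fold higher, against 14.6% of all, and 0 were at least 2-fold lower, against 3.97% of all. On that scale the 36.0 kb and 11.4 kb SPEN sites had ratios of 3.93 and 4.5, the main RBPJ site 2.7, the 13.4 kb SPEN site 1.72 and the MAML2 site 1.94. What sets the local background was not tested.

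**Figure D5:**
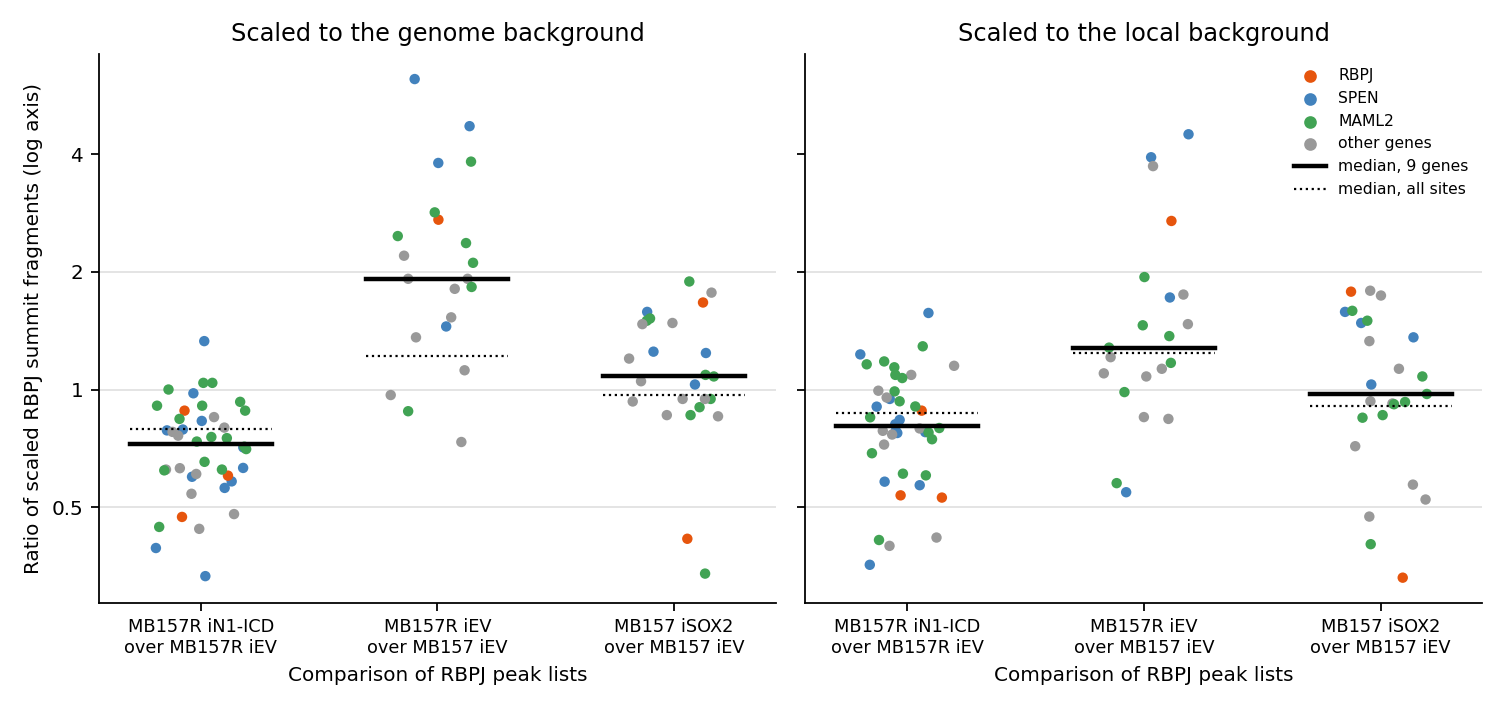
Ratio of RBPJ summit fragments (y axis, log scale) at each site called in both lists of a comparison, scaled to the genome-wide background (left) or to the local background of each peak (right), with the medians of the 9 genes (solid) and of all shared sites (dotted). For MB157R iEV over MB157 iEV the 9-gene median was 1.92 on the first scale and 1.28 on the second, beside 1.22 and 1.24 for all sites.

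Motif matches near the summits were few. Within 100 bp of the summit, the RBPJ motif was present at 6 of 59 RBPJ summits in MB157R iN1-ICD (10.2%), 3 of 61 in MB157R iEV (4.92%), 7 of 44 in MB157 iSOX2 (15.9%) and 7 of 38 in MB157 iEV (18.4%). Over the whole lists the share was 12.0%, 9.4%, 12.2% and 13.9%, inside the interval of each. The SOX motif was near 14 of 64 SOX2 summits in MB157R iEV (21.9%) and 43 of 155 HA-SOX2 summits (27.7%), against 18.8% and 30.7% of the whole lists. The AP-1 motif was near 17 of 64 SOX2 summits in MB157R iEV (26.6%, whole list 31.0%) and 9 of 155 HA-SOX2 summits (5.81%, whole list 5.54%). Of the 9 leading RBPJ sites, those of RBPJ and SPEN held the RBPJ motif and the other 7 did not.

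A wider set of Notch cofactor genes was counted at promoters. Of 28 further coactivator and corepressor genes, RBPJ had a summit within 1 kb of the gene start at 18 in MB157R iN1-ICD, 22 in MB157R iEV, 21 in MB157 iSOX2 and 15 in MB157 iEV. That is 64.3%, 78.6%, 75.0% and 53.6% of the 28, against 43.0%, 56.1%, 50.4% and 38.0% of all coding genes in the same lists. For SOX2 the counts were 0 with iN1-ICD (0.0751% of all coding genes) and 7 with iEV (25.0%, against 21.8% of all) in MB157R, and for HA-SOX2 14 (50.0%, against 34.0% of all). The highest promoter folds in MB157R iEV were those of CDK8, the kinase of the Mediator complex, of KMT2D, a histone H3 lysine 4 methyltransferase, and of TLE1, a Groucho-type corepressor. CDK8 had RBPJ folds of 16.7 in MB157R iN1-ICD, 25.5 in MB157R iEV, 14.8 in MB157 iSOX2 and 12.8 in MB157 iEV. KMT2D had 15.4 and TLE1 12.0 in MB157R iEV. These values lie below those of the main RBPJ and SPEN sites in the same list.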

How the data were processed

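ChIP-seq was done on cells cross-linked with DSG and formaldehyde, with 22 immunoprecipitated and 12 input libraries. Per the study's methods and labels, the authors used BWA for alignment (paired-end, hg38) and MACS2 for narrow peaks, after pooling the libraries of a group and with the inputs as controls, at a false discovery rate of 0.05. The deposited peak files give a score, the fold (a ratio of summit pileup to local background) and −log10 p and −log10 q of each peak. From fold and −log10 p, the whole number of summit fragments and the local background were recovered for 100.0% of peaks, within 0.0002 plus 2e-05 of the −log10 p, and the procedure was tested on simulated data. The lowest local background of a list was taken as its genome-wide background.

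Peaks on chromosomes 1 to 22 and X were assigned to genes of GENCODE release 44, and all peaks lay within the chromosome lengths of the hg38 sequence used. Chains of summits less than 500 bp apart over all lists were joined into sites, which can then be longer than 500 bp, and ratios paired the mutually nearest summits. Promoter, highest RBPJ and highest SOX2 or HA-SOX2 sites were described for each gene. Likeness to RBPJ was measured over promoter folds, and the 28 further cofactors were listed by name. With 1 pooled list for each group no test was run, and intervals are exact (Clopper-Pearson binomial and Poisson, 95%). Fragments are not independent molecules of separate cultures, so intervals cover counting error only. Alternatives were other distances, overlap, a stricter q, other gene assignments, other scalings and a narrower motif window. The genes, lists and alternatives were chosen with earlier results of these data known. Calculations used Python 3.11.15, numpy, pandas, scipy and matplotlib.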

Additional observations from a re-analysis of the deposited data

How the results depend on the processing

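No paired analysis was possible because the peaks had been called on pooled libraries, and for the same reason no library could be left out in turn. Other settings left 51 of 64 shares within their intervals of the main setting, including 8 that stayed at 0 (SOX2 summits called again with iN1-ICD). Except without MAML2, intervals were not recomputed under other settings. Whether they would still include the whole-list values, which move too, was therefore not checked. For the lists with a summit, 14 of 24 summit counts moved by over 1.5 times. With a distance of 100 bp, RBPJ near SOX2 in MB157R iEV was 18.0% at the 9 genes (whole list 25.0%). SOX2 near RBPJ was 17.2% (whole list 30.7%). RBPJ near HA-SOX2 was 34.1% (whole list 21.3%), and HA-SOX2 near RBPJ was 9.68% (6.79%). RBPJ of MB157R iEV called again with iN1-ICD was 47.5% (whole list 36.8%). For RBPJ of MB157 iEV called again in MB157R iEV it was 28.9% (27.8%). With 250 bp, RBPJ near SOX2 was 37.7% (whole list 39.5%) and SOX2 near RBPJ 35.9% (48.5%). Without MAML2 at 500 bp they were 37.8% and 38.9%, against 46.4% and 57.0% of the whole lists. RBPJ near HA-SOX2 was 79.5% with 1000 bp (whole list 56.2%) and 77.3% with peak overlap by 1 bp (53.7%). With a −log10 q of at least 5, HA-SOX2 near RBPJ was 7.63% (whole list 9.49%). At that threshold RBPJ of MB157R iEV called again with iN1-ICD was 72.5% (whole list 50.9%). RBPJ summits then numbered 39 (MB157R iN1-ICD), 40 (MB157R iEV), 20 (MB157 iSOX2) and 23 (MB157 iEV). Within 10 kb of the gene start there were 16, 17, 11 and 11 RBPJ summits in the same lists, 12 SOX2 summits (MB157R iEV) and 17 HA-SOX2 summits. Summits nearest to the start of the gene itself numbered 39 (RBPJ, MB157R iEV), 24 (RBPJ, MB157 iEV), 41 (SOX2, MB157R iEV) and 97 (HA-SOX2). The median ratio of MB157R iEV over MB157 iEV was 1.28 with the local background and 1.49 with the deposited folds, against 1.92. For iSOX2 over iEV in MB157 it was 0.974 with the local background and 1.11 with the deposited folds, against 1.08. Depth limits the weak sites most, since summits of 8 to 12 fragments lie at the edge of being called. The cause of these differences was not tested, other than that narrower distances, stricter thresholds and fewer genes keep fewer summits by construction.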

Other observations

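Genes whose promoters resemble that of RBPJ were sought by the distance between log2 promoter folds over 7 lists. The gene start of RBPJ had no summit within 1 kb in any list, a pattern shared by 6410 other coding genes, so no gene could be singled out. With any annotated transcript start, a choice made after the values were seen, the 3 nearest genes were DDX39B (distance 1.01), CDKN2B (1.19) and IL1RAP (1.38). DDX39B had RBPJ folds of 38.9 in MB157R iN1-ICD, 68.2 in MB157R iEV, 57.3 in MB157 iSOX2 and 51.6 in MB157 iEV, beside 47.2, 93.6, 62.5 and 33.3 at RBPJ.

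By the same transcript starts NCOR1, a nuclear receptor corepressor and one of the 28 further cofactors, picked after its values were seen, had RBPJ folds of 22.5 in MB157R iN1-ICD, 24.0 in MB157R iEV, 54.2 in MB157 iSOX2 and 40.7 in MB157 iEV. Its gene start had no RBPJ summit within 1 kb in any of the 4 lists.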
